A study of Mus musculus with 29 samples.

Results

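The cytosolic ribosomal protein genes encode the protein subunits of the ribosomes that translate nuclear mRNA. The members were taken by symbol: protein-coding genes named Rpl or Rps followed by a digit, together with Rplp0, Rplp1, Rplp2 and Rpsa, without the Rps6k kinase genes and without symbols marked as pseudogenes. Of the 38924 gene rows, 86 were members. The core of 77 genes, 1 for each ribosomal protein, held 46 genes of the large subunit and 31 of the small subunit. The other 9 were Rpl3l, Rpl7l1, Rpl10l, Rpl22l1, Rpl36al, Rpl39l, Rps27l, Rps27rt and Rps19bp1, which are paralogues or namesakes of core genes, and Rps19bp1 encodes a protein that binds Rps19 and is not a ribosomal subunit. The ribosomal proteins made from Fau and Rack1 have symbols outside the rule and are given separately. Expression was high enough for testing in 82 of the 86 members in every comparison.

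Poly(A) RNA was sequenced from bone marrow cells of young C57BL/6 mice, sorted as LT-HSC and ST-HSC (long-term and short-term haematopoietic stem cells) and as the multipotent progenitors MPP3 and MPP4. Mice were Dnmt3a mutant or control, and every group was sampled 6 weeks after pIpC, a synthetic double-stranded RNA that is widely given to activate interferon-driven Cre. The mutant allele and any Cre driver are not given in the sources used here. Of the 29 libraries, controls comprised 4 of LT-HSC, 3 of ST-HSC, 3 of MPP3 and 4 of MPP4, and mutants 3 of LT-HSC and 4 of each other population. The labels do not state that replicates came from separate animals, so a p-value here reflects the spread among libraries, and that spread may be technical.

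A ribosome needs the core proteins in near equal numbers, and cells keep the transcripts of these genes at high and related levels. Many of these mRNAs begin with a C followed by a run of pyrimidines, the 5′ terminal oligopyrimidine motif through which mTOR signalling sets their translation. Haematopoietic stem cells are known for a low rate of protein synthesis compared with their progeny, and inherited loss of 1 copy of several of these genes causes Diamond-Blackfan anaemia, a failure of red cell production.

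The starts of 6 members are printed as examples, of which 5 hold this motif at the annotated start and Rpl31 does not. Each line gives 10 bases before and 20 bases from the RefSeq transcript start on GRCm38.p6, with the unbroken run of C and T from the start in capitals. They are Rpl15 (chr14:18270967-18270996, minus strand), Rpl35 (chr2:39005112-39005141, minus), Rps6 (chr4:86857348-86857377, minus), Rps18 (chr17:33955646-33955675, minus), Rpl28 (chr7:4792955-4792984, plus) and Rpl31 (chr1:39367841-39367870, plus), printed without capitals because its annotated start is not a C with 4 further pyrimidines.
Rpl15: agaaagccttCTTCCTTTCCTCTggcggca
Rpl35: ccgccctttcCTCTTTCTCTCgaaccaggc
Rps6: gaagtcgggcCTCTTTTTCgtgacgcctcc
Rps18: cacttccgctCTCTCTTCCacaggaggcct
Rpl28: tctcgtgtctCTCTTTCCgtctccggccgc
Rpl31: tcctcgcctccccgtgacccggaagttgta
A promoter sequence was found in RefSeq for 66 members. A start at C with 4 further pyrimidines was annotated in 14 of them (21.2%), against 3.01% of all 27025 genes in the table. A pyrimidine run of at least 10 bases that overlapped the 10 bases on either side of the start was present in 34.8% of members and 8.3% of all genes, and for a run of at least 8 bases the shares were 43.9% and 16.1%.

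Short motifs were counted on both strands of the same 300-base promoter windows, 250 bases before and 50 after the start. CCGGAAG, which holds the core of ETS family sites, occurred in 39.4% of members and 9.93% of all genes, and the overlapping GGAAGT in 48.5% and 26.5%. TCGCGA occurred in 21.2% and 2.86%, and CTCTTTCC in 15.2% and 3.57%. The shorter CTTTCC, which lies within it, occurred in 54.5% and 29.3%, and CTTCC, which pairs with part of CCGGAAG, in 92.4% and 73.9%. GGGCGG, an Sp1-type GC box, occurred in 62.1% and 38.2%, AAGATGG in 15.2% and 7.28%, and TATAAA in 10.6% and 15.7%. TATAAA was thus the 1 motif of these 9 with a lower share in members than in all genes.

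Ribosomal protein genes have many near-identical processed copies in the mouse genome, and the deposited counts divide reads among such copies. The clearest case was Rps12, a small-subunit gene on the minus strand of GRCm38 chr10:23785183-23787275, which was listed at 0 in all 29 libraries. Its annotated pseudogene Rps12l1 (chr7:56014016-56014414, plus strand) had a mean of 2262 counts and between 640 and 4306. Both annotations hold the same coding sequence of 399 bases, so reads from either could not be told apart there. Its first 150 bases are printed once to show this identity, with the start codon in capitals.
Rps12 and Rps12l1: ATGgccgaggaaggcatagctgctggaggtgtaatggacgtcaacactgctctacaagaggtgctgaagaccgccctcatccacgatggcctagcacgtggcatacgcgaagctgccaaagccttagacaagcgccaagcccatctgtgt
The row of Rps12 together with its copies had a mean of 2404 counts. A listing at 0 for the parent gene is therefore no measure of Rps12 RNA in these cells.

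Rps27 gave another case within the members themselves. Rps27 (chr3:90212522-90213651, minus) and the single-exon member Rps27rt (chr9:114982366-114982739, minus) have the same 255-base coding sequence, whereas Rps27l (chr9:66946086-66949516, plus) differs from it at 61 bases, an identity of 76.08%. The coding sequences are shown because coding reads can be assigned to Rps27l but not to Rps27 or Rps27rt alone. Capitals mark the bases that differ between Rps27 and Rps27l.
Rps27 and Rps27rt: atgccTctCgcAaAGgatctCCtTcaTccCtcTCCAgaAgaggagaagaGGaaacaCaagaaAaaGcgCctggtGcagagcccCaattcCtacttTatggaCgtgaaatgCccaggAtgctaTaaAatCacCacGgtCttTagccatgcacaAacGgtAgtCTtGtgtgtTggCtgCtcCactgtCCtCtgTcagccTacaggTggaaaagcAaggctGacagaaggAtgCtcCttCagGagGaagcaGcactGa
Rps27l: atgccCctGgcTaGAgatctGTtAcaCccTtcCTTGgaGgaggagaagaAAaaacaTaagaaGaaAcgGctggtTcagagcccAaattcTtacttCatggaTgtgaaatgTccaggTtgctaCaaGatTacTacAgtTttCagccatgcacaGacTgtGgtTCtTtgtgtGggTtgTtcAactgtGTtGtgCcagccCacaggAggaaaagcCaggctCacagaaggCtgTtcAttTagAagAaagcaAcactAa
The mean level in CPM, a read count scaled to a common library size by TMM, was 27.03 for Rps27, with libraries from 12.12 to 66.5, and 237.4 for Rps27rt. Rps27l had a mean of 40.63 CPM and a range of 16.36 to 75.7.

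Across the family, 149 rows shared at least 50% of their 50-base windows with a member, and 61 members had such a copy. Of the members, Rps27rt alone was entered in this search as a possible copy, so likeness among the other members was not examined. The copy rows held 15.44% of the counts of members and copies together. In 12 cases the copy had a higher mean count than its parent. More counts lay on copies than on the gene itself for 10 members. Besides Rps12 and Rps27 (89.73% on copies), these included Rpl5 (84.81%), Rps7 (74.72%), Rpl12 (72.1%), Rps6 (67.63%), Rps27a (66.84%), Rpl27a (64.22%) and Rpl31 (55.46%). Single copies carried most of this: Gm15500 for Rpl5 had a mean of 5212 counts, Rps6-ps4 had 4066, Rpl31-ps8 had 2804 and Gm6472 for Rps7 had 2705. The copies were searched for after Rps12 was seen at 0, and values for the genes named here are given below, where the row matters, both for their own row and for the row summed with its copies.

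**Figure D1:**
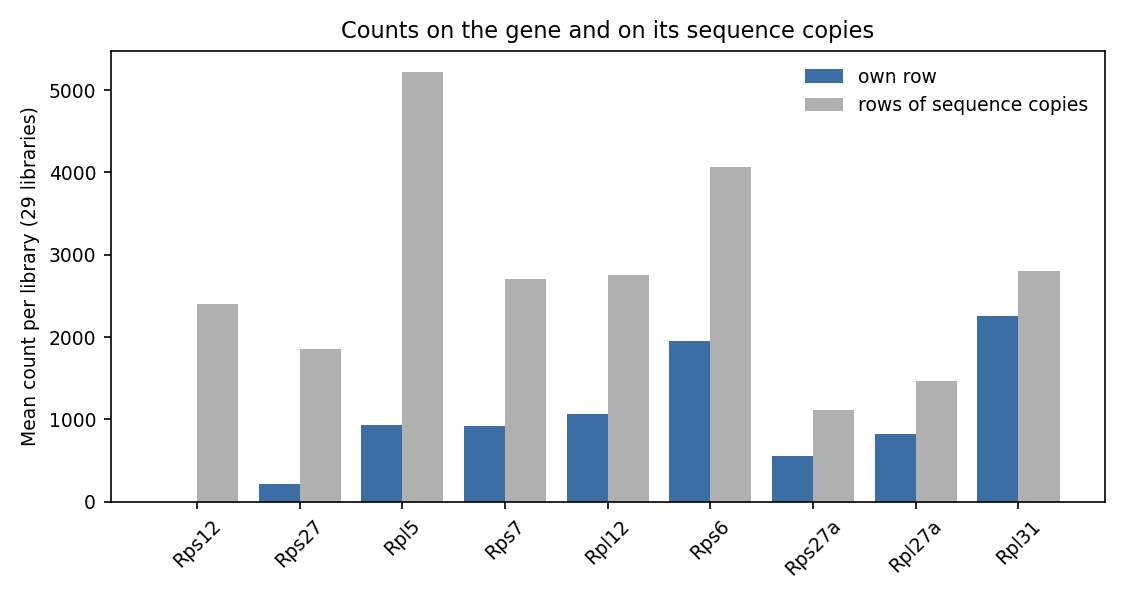
Bars give the mean count per library over 29 libraries (y axis) for the 9 members with the largest share of counts on sequence copies (x axis), in blue for the gene's own row and in grey for the rows of its copies. The grey bar exceeds the blue bar for each of the 9, from Rps12 with 0 against 2404 to Rpl31 with 2254 against 2807.

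Compared per length, as mean CPM per kilobase of a principal transcript, the highest core members were Rpl10a (1081), Rps29 (979.7) and Rps15 (923.1). The lowest were Rps12 (0), Rpl5 (57.3), Rps20 (77.28) and Rps27 (78.35), and 3 of these 4 are genes with most counts on copies, while the transcript used for Rps20 was long. Without length scaling, the highest mean levels were those of Rpl4 (1133 CPM), Rps4x (832.7 CPM) and Rpl10a (787.8 CPM). Rpl10l was listed at 0 in all 29 libraries. Rpl39l, a paralogue best known from testis, had at most 4 counts (0 to 0.430 CPM), and the striated muscle paralogue Rpl3l at most 34 (0 to 4.13 CPM), where a count of 0 allows up to 3 counts, or 0.288 to 0.564 CPM, for counting error only. Their partners Rpl10, Rpl39 and Rpl3 had mean levels of 641.4, 474.5 and 524.2 CPM.

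Before the comparisons, the libraries were checked against markers of the sorted populations. Slamf1, the LT-HSC surface marker CD150, was at 14.15 to 54.1 CPM in LT-HSC, at 0.764 to 2.15 in control ST-HSC and at 0 to 0.121 in MPP4. The library labelled mutant ST-HSC replicate 2 stood apart, with 405.6 CPM of Slamf1 against 0.776 to 1.83 in the other 3 of its group, while its Mecom level (112.9 CPM) lay within the ST-HSC range of 65.37 to 133.8. Flt3 was at 378.9 to 460.0 CPM in MPP4 and 29.34 to 71.61 in LT-HSC, and Prtn3 at 126.3 to 301.6 in MPP3 and at most 83.91 elsewhere. S100a8, a neutrophil gene, was at 348.6 to 2258 CPM in control LT-HSC replicates 1 to 3 and at 3.667 in replicate 4. The neutrophil list (S100a8, S100a9, Camp, Ngp, Ltf, Lcn2, Mmp8) summed to 11410, 3634 and 1546 CPM in those 3 libraries and 44.72 in replicate 4, and the red cell list to 27130, 5329 and 8287 against 869.3. The antibody-secreting cell list summed to 1054 to 14820 CPM in MPP3 and at most 1687 elsewhere. Whole-gene Dnmt3a counts do not check the genotype, since they do not show which allele was read, and lay at 81.91 to 166.7 CPM in control LT-HSC and 120.3 to 136.6 in mutant LT-HSC. In sorted bulk samples, fewer cells of a type and less RNA per cell cannot be told apart.

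Summed over the 86 members, ribosomal protein transcripts made up 1.788% to 3.91% of the counts of a library, with a median of 2.669%. The summed level in control LT-HSC was 26730, 21890, 21890 and 20930 CPM, and in control ST-HSC it was 26230, 17440 and 23930. In control MPP3 it was 20260, 27470 and 24740, and in control MPP4 32630, 30640, 26690 and 29890. Control MPP4 thus had the highest mean of the controls, 29960 ± 2472 (SD), against 22860 ± 2619 in LT-HSC, and 1 LT-HSC library, replicate 1, lay just above the lowest MPP4 library. As a percent of all counts, the same groups did not overlap, at 2.26% to 2.305% in control LT-HSC and 2.669% to 3.424% in control MPP4.

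The mutant libraries spread more widely in LT-HSC, ST-HSC and MPP4, while in MPP3 the 2 genotypes had a spread of like size. The summed level was 17830, 30700 and 28290 CPM in mutant LT-HSC and 28920, 47220, 32700 and 22860 in mutant ST-HSC. It was 28460, 28950, 23980 and 32730 in mutant MPP3 and 23760, 31840, 37600 and 24880 in mutant MPP4. The mean of mutant ST-HSC, 32930 ± 10360 (SD), was the highest of the 8 groups, and its highest value came from replicate 2, the library that stood apart in Slamf1. The other mutant means were 25610 ± 6843 in LT-HSC, 28530 ± 3582 in MPP3 and 29520 ± 6461 in MPP4, each overlapping its control group. No test was made on the sum, because the members were chosen with results known. The ratio of the small-subunit to the large-subunit sum ran from 0.582 to 0.801 over the 29 libraries.

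**Figure D2:**
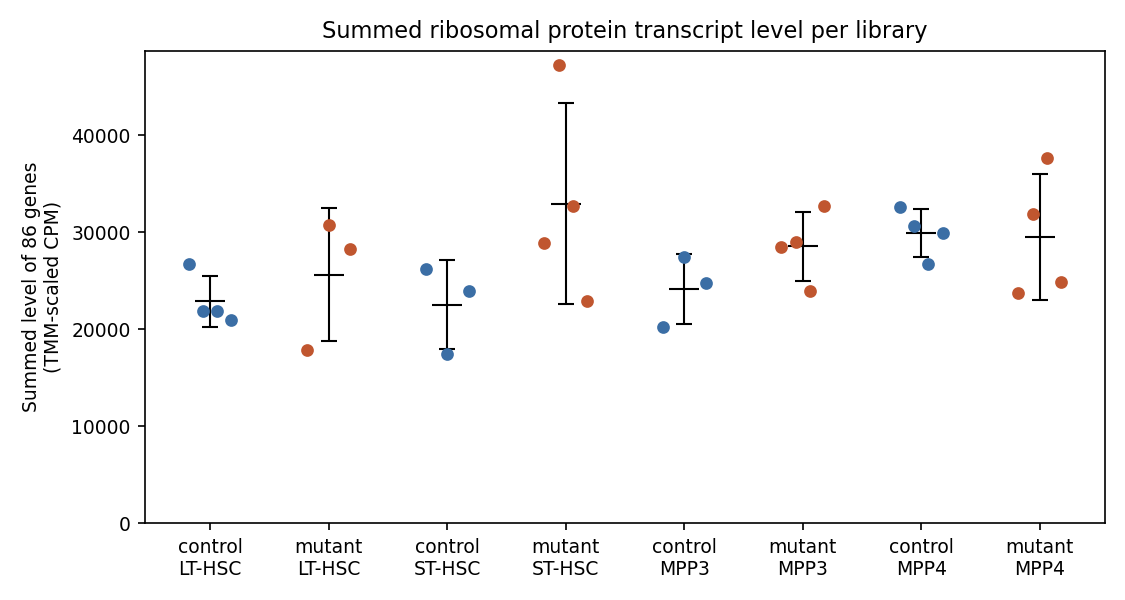
Each point is 1 library, with the summed level of the 86 members in CPM on the y axis and the 8 groups on the x axis (controls blue, mutants orange). Bars give the mean and SD. The control LT-HSC libraries lie between 20930 and 26730 CPM and the control MPP4 libraries between 26690 and 32630, and mutant ST-HSC replicate 2 is the highest library at 47220.

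The first comparison asked whether ribosomal protein transcripts differed among the 4 control populations. In edgeR's quasi-likelihood test with Benjamini-Hochberg adjustment over all genes, 0 of 82 members passed 0.05 for any difference, where 5.86% of the 14937 genes tested did. At an unadjusted p under 0.05, 8 members (9.76%) passed, all 8 of the large subunit, against 19.1% of all genes. DESeq2 called 3 members, Rpl29 and Rpl3 included, where it called 10.8% of all genes, and limma voom called 0, against 4.13%. Without control ST-HSC replicate 1 edgeR called 3, Rpl28 and Rpl36 included, against 6.58% of all genes. The 4 contrasts that follow share libraries and one estimate of the spread.

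Control MPP4 against control LT-HSC showed the most uniform direction among the control populations. Of the 82 members, 80 had a higher fitted level in MPP4, with a median log2 difference of 0.39, where 49.6% of all genes were higher and their median was -0.0052. In edgeR, 0 members passed, against 4.49% of all genes, and 19 members (23.2%) had an unadjusted p under 0.05, against 15.6% of all genes. Both subunits had medians of like size, with 45 of 46 large-subunit members higher at a median of 0.38 and 30 of 30 small-subunit members at 0.40. The 2 members without a higher level were Rpl5, at -0.00024, and Rps19bp1, at -0.32. DESeq2 called Rpl29 and Rpl3, against 7.1% of all genes, and limma voom and edgeR with its robust option each called Rpl3 alone, against 3.07% and 4.2%.

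Rpl3, a large-subunit protein near the peptidyl transferase centre, had the smallest p of the members in this contrast. It was at 417.7, 456.1, 387.4 and 413.7 CPM in control LT-HSC and at 599.2, 674.2, 569.0 and 617.2 in control MPP4. All 4 MPP4 libraries lay above all 4 LT-HSC libraries. The log2 difference was 0.56 ± 0.155 (SE), 1.471-fold, with an adjusted p of 0.05001 in edgeR, just outside the threshold, and the robust option gave 0.04347. The adjusted p was 0.007623 in DESeq2 and 0.02629 in limma voom, and leaving out 1 library at a time gave differences of 0.51 to 0.60 with an adjusted p of up to 0.1348. Rpl3 also had the smallest spread between replicates of the tested members, an SD of 0.1651 on the log2 scale within groups.

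Rpl29, a small basic protein of the large subunit, was at 255.9, 255.1, 254.3 and 226.3 CPM in control LT-HSC and 335.2, 369.8, 329.8 and 407.8 in control MPP4. The groups did not overlap, and the log2 difference was 0.54 ± 0.163 with an adjusted p of 0.07278 in edgeR and 0.02742 in DESeq2.

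The size of the MPP4 to LT-HSC difference moved with the LT-HSC libraries. Leaving out 1 library at a time gave medians of 0.32 to 0.49 and 7 to 35 members with an unadjusted p under 0.05, where the share of all genes ran from 13% to 16.8%. The lowest count, 7, was reached without control LT-HSC replicate 2 or replicate 4, and the highest without control LT-HSC replicate 1, the library with the highest neutrophil and red cell sums. With replicate 4 as the single control LT-HSC library, which assumes that it varies like the other groups, the median was 0.60, 78 members were higher, 24 had an unadjusted p under 0.05 (7.93% of all genes) and 0 were called. The part of the neutrophil and red cell RNA in these differences was not tested further.

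Control MPP4 also had higher fitted levels than control MPP3 in 73 of 82 members, with a median of 0.29 where all genes had 49.6% higher and a median of -0.0048. In edgeR 0 members passed, against 1.44% of all genes, DESeq2 and limma voom also called 0, and 14 (17.1%) had an unadjusted p under 0.05 against 11.2%. The median ran from 0.21 without control MPP3 replicate 1, where 62 were higher and 5 had an unadjusted p under 0.05 (9.71% of all genes), to 0.41 without control MPP3 replicate 2. Rpl36, a large-subunit protein, had the smallest p. It was at 112.2, 114.3 and 146.2 CPM in control MPP3 and 226.1, 201.2, 207.5 and 199.5 in control MPP4, 2 groups well apart, with a log2 difference of 0.74 ± 0.247 and an adjusted p of 0.1919. Rpl31, at 0.90 ± 0.375 (0.3414), and Rpl11, at 0.80 ± 0.311 (0.2915), had the highest fitted differences on own rows. With sequence copies added Rpl31 was at 0.65, Rpl11 at 0.49 and Rpl36 at 0.70.

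Against control LT-HSC, the other control populations showed no common direction. In control MPP3, 50 of 82 members were higher, with a median of 0.10 against -0.0195 over all genes, and the median was -0.0234 with 36 higher when control MPP3 replicate 2 was left out. In edgeR 0 passed, against 1.39% of all genes, and 5 (6.1%) had an unadjusted p under 0.05 against 13.3%. The members ran from Rpl31 at -0.70 to Rps27l at 0.89 ± 0.315 (adjusted p = 0.2049). In control ST-HSC 41 were higher and 41 lower, with a median of -0.015 against 0.023 over all genes. There edgeR called 0 members, against 0.1% of all genes, and 0 had an unadjusted p under 0.05, against 10.4%, or 9 without control ST-HSC replicate 1, against 13.7%. DESeq2 and limma voom called 0 members in both contrasts.

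**Figure D3:**
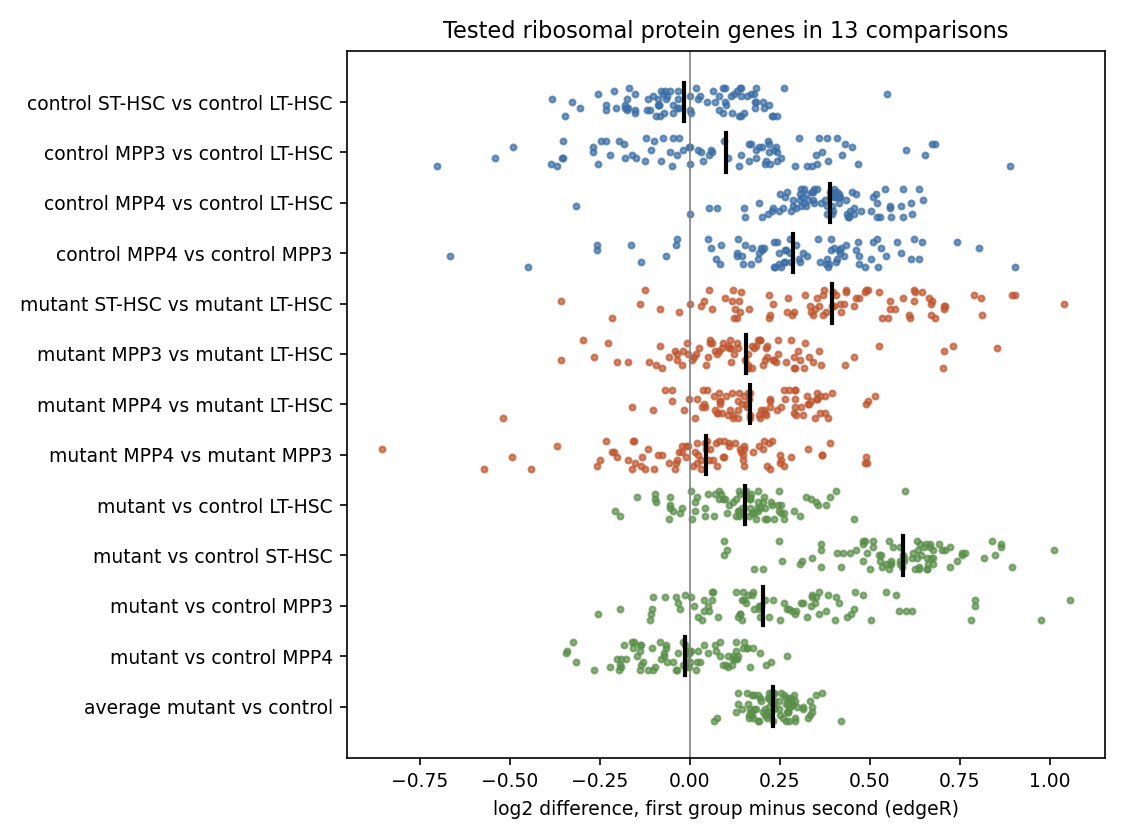
Each point is 1 of the 82 tested members, placed on the x axis by its edgeR log2 difference (first group minus second) in the comparison named on the y axis, in blue between control populations, in orange between mutant populations and in green between mutant and control. Black bars are medians. The medians lie at 0.39 for control MPP4 against LT-HSC and 0.59 for mutant against control ST-HSC, and near 0 for control ST-HSC against LT-HSC and mutant against control MPP4.

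Among the 4 mutant populations, edgeR called 0 of 82 members for any difference, against 6.18% of 14766 genes, and 1 (1.22%) had an unadjusted p under 0.05 against 17.6%. DESeq2 and limma voom called 0 members in this test and in the 4 mutant contrasts below. Mutant ST-HSC had higher fitted levels than mutant LT-HSC in 76 members, with a median of 0.40 against 0.025 over all genes. In edgeR 0 passed, against 0.278% of all genes, and 12 (14.6%) had an unadjusted p under 0.05 against 7.93%. This rested on 2 libraries in particular. Without mutant ST-HSC replicate 2 the median was 0.16, with 61 higher and 1 at an unadjusted p under 0.05 (6.21% of all genes), and without mutant LT-HSC replicate 1, the lowest library of its group, it was 0.18, with 62 and 0 (5.55%).

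Rpl36al, a near-identical paralogue of Rpl36a with its own gene on chromosome 12, had the smallest p in 3 of the mutant contrasts. It was at 81.05, 107.3 and 131.0 CPM in mutant LT-HSC, at 180.7, 221.8, 156.7 and 126.2 in mutant ST-HSC and at 213.2, 151.6, 157.6 and 183.1 in mutant MPP3. All 4 mutant MPP3 libraries lay above the mutant LT-HSC libraries, and 1 mutant ST-HSC library lay within their range. The log2 differences from mutant LT-HSC were 0.67 ± 0.245 (adjusted p = 0.4408) for ST-HSC, 0.71 ± 0.246 (0.1544) for MPP3 and, for MPP4, 0.50 ± 0.244 (0.5049), all by edgeR. These 3 differences share the mutant LT-HSC libraries. Rps21, a small-subunit protein with one of the largest spreads between replicates, had the highest difference for mutant ST-HSC, at 1.04 ± 0.445 (0.5608).

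Mutant MPP3 had higher fitted levels than mutant LT-HSC in 64 of 82 members (median 0.16, against 0.0045 over all genes), and mutant MPP4 in 74 (median 0.17, against 0.022). In edgeR 0 members passed in either, against 2.95% of all genes for MPP3 and 2.18% for MPP4. At an unadjusted p under 0.05 there were 2 (2.44%) for MPP3 and 0 for MPP4, against 14.1% and 10.4%. Without mutant LT-HSC replicate 1 both medians turned to -0.080 (29 higher) and -0.026 (36 higher). Scaling by the library total without rRNA moved the MPP3 median to 0.0199 with 43 higher. Mutant MPP4 against mutant MPP3 gave 49 higher, a median of 0.044, 0 called in edgeR (1.44% of all genes) and 2 (2.44%) at an unadjusted p under 0.05, against 11.5%. The median was negative without any 1 of mutant MPP3 replicate 3 (-0.045), mutant MPP4 replicate 2 (-0.022) and mutant MPP4 replicate 3 (-0.087).

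Mutant and control libraries were next compared within each population. In ST-HSC all 82 tested members had a higher fitted level in the mutant, with a median log2 difference of 0.59, where 50.7% of all genes were higher and their median was 0.0079. None passed the adjusted threshold: edgeR called 0 members and 0% of 13381 genes, and DESeq2 and limma voom also called 0 members. At an unadjusted p under 0.05 there were 18 members (22%), against 3.68% of all genes. The count depended on single libraries. It was 0 without mutant ST-HSC replicate 2 (median 0.31, 81 higher), 0 without control ST-HSC replicate 2 (median 0.42, 78 higher), 4 without mutant ST-HSC replicate 3 (median 0.61) and 50 without mutant ST-HSC replicate 4 (median 0.74). It was 29 without control ST-HSC replicate 1. Over all 7 libraries left out in turn, the share of all genes ran from 3.15% to 4.73%.

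Rpl37, a zinc-finger protein of the large subunit, had the smallest p of the members in this contrast. It was at 109.4, 70.25 and 124.7 CPM in control ST-HSC and 161.6, 266.6, 185.5 and 113.7 in mutant ST-HSC. The groups overlapped, since mutant replicate 4 lay within the control range, and the highest library was mutant replicate 2. The log2 difference was 0.84 ± 0.312 (adjusted p = 0.998 in edgeR), and 0.59 without mutant replicate 2.

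In MPP3, 71 of 82 members were higher in the mutant, with a median of 0.20 against 0.011 over all genes. In edgeR 0 passed, as for all genes (0%), and 10 (12.2%) had an unadjusted p under 0.05 against 2.23%. That count was 2 without control MPP3 replicate 1 (median 0.12, 55 higher) or without control MPP3 replicate 2 (median 0.34), and 3 without mutant MPP3 replicate 4, while the share of all genes ran from 1.4% to 3.36% over the libraries left out. In LT-HSC 69 were higher, with a median of 0.15 against 0.00089, 0 called in edgeR (0% of all genes), and 2 (2.44%) at an unadjusted p under 0.05 against 8.51%. The LT-HSC median was -0.028 (35 higher) without mutant LT-HSC replicate 2 and 0.35 (80 higher) without mutant LT-HSC replicate 1. With replicate 4 as the only control LT-HSC library it was 0.34. In MPP4, 34 were higher, with a median of -0.012 against 0.0055, 0 called (0% of all genes) and 0 at an unadjusted p under 0.05 against 3.15%. Leaving out 1 library gave MPP4 medians from -0.16 to 0.070, the lowest without mutant MPP4 replicate 3. DESeq2 and limma voom called 0 members in these 3 populations.

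Averaged over the 4 populations, all 82 tested members were higher in the mutant, with log2 differences of 0.067 to 0.42 and a median of 0.23, where 49.7% of all genes were higher with a median of -0.0013. In edgeR 0 members passed, against 0.0251% of 15915 genes, and 21 members (25.6%) had an unadjusted p under 0.05 against 7.53%. DESeq2 and limma voom called 0. Without mutant ST-HSC replicate 2 the median was 0.18 and 10 members had an unadjusted p under 0.05, and over all libraries left out in turn the median ran from 0.18 to 0.29 and the count from 10 to 47, the highest without mutant LT-HSC replicate 1, while the share of all genes ran from 6.65% to 8.3%. Rps24, a small-subunit protein whose loss causes Diamond-Blackfan anaemia, had the smallest p, with 0.33 ± 0.119 (adjusted p = 0.413) and mean levels of 799.6 CPM in the mutant and 636.5 in the control. An interaction test asked whether the effect of the mutation depended on the population. EdgeR, DESeq2 and limma voom each called 0 members, and edgeR called 0% of all genes. In edgeR 1 member (1.22%) had an unadjusted p under 0.05, against 5.95% of all genes. It was Rps27a on its own row, with an adjusted p of 0.7787 in edgeR, and 66.84% of its family's counts lie on copies. The wider range of medians between populations is therefore not shown to be a difference between them.

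By role, the acidic stalk, through which elongation factors reach the ribosome, comprises Rplp0, Rplp1 and Rplp2. Rplp0 was at 557.0, 330.7, 399.5 and 318.9 CPM in control LT-HSC and 589.7, 707.3, 387.0 and 592.6 in control MPP4. The groups overlapped, and the log2 difference was 0.51 ± 0.225 (adjusted p = 0.2767 in edgeR). Rplp1 and Rplp2 differed by 0.53 ± 0.303 and 0.59 ± 0.294. For mutant against control ST-HSC the 3 values were 0.70, 0.66 and 0.66, and for the average mutant effect 0.28, 0.19 and 0.15. In mutant ST-HSC Rplp0 was at 531.9, 1131, 725.7 and 463.5 CPM, with replicate 2 far above the rest.

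Rpl5 and Rpl11 form the 5S ribonucleoprotein that binds Mdm2 and so links the ribosome to p53. Rpl5 was at 123.6 ± 9.085 CPM in control LT-HSC, 110.2 ± 7.162 in control ST-HSC, 94.08 ± 5.521 in control MPP3 and 123.3 ± 29.77 in control MPP4 (SD). Rpl11 was at 224.9 ± 48.0, 248.7 ± 138.2, 159.4 ± 45.19 and 279.4 ± 40.2 in the same order. The mutant minus control differences in ST-HSC were 0.36 for Rpl5 and 0.10 for Rpl11, both below the family median of 0.59, and 0.45 for each with copies added. In MPP3, Rpl11 differed by 0.79 ± 0.300 (adjusted p = 0.9998 in edgeR) on its own row and by 0.45 with copies added, which hold 32.42% of its counts. Rpl5 has 84.81% of its counts on copies, and summing them moved its control MPP4 to LT-HSC difference from -0.00024 to 0.18.

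Rpsa, the small-subunit protein also known as the laminin receptor precursor, was at 428.7, 289.1, 380.5 and 302.1 CPM in control LT-HSC and 465.8, 489.0, 453.4 and 646.4 in control MPP4. The groups did not overlap, and the difference was 0.56 ± 0.210 (adjusted p = 0.1751 in edgeR). Rps19, the gene most often mutated in Diamond-Blackfan anaemia, was at 343.3, 195.9, 267.0 and 176.6 CPM against 454.9, 322.4, 252.2 and 447.9, which overlap, with a difference of 0.59 ± 0.237 (0.2134). Rps14, whose loss underlies the anaemia of the 5q deletion syndrome, was at 145.9, 152.5, 133.2 and 124.1 against 224.7, 175.5, 161.7 and 141.5, also overlapping, with 0.34. In ST-HSC the mutant minus control differences were 0.59 for Rpsa, 0.66 for Rps19 and 0.66 ± 0.265 for Rps14. As a list, 16 of 17 Diamond-Blackfan genes were higher in control MPP4 than LT-HSC (median 0.35), 17 of 17 in mutant ST-HSC (0.64) and 17 of 17 in the average mutant effect (0.27), with 0 called in each. Over all members the medians of the same 3 comparisons were 0.39, 0.59 and 0.23.

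Rps6, the small-subunit protein that S6 kinases phosphorylate, was the member with the smallest p for mutant against control LT-HSC. Its own row was at 204.8, 173.1, 162.6 and 227.2 CPM in control and 229.2, 293.1 and 354.8 in mutant LT-HSC. The groups did not overlap, and the log2 difference was 0.60 ± 0.204 (adjusted p = 0.3686 in edgeR). With its copies added, 67.63% of the family's counts, the difference was 0.12. Rps27a, made as a fusion with ubiquitin, was at 57.79, 41.13 and 53.22 CPM in control MPP3 and 198.7, 50, 83.41 and 91.62 in mutant MPP3. Mutant replicate 2 lay within the control range and replicate 1 was far above the rest. The difference was 1.06 ± 0.403 (adjusted p = 0.9998), 0.56 without mutant MPP3 replicate 1, and 0.19 with copies added. In mutant MPP4 against mutant MPP3 its own row differed by -0.86 ± 0.360 (adjusted p = 0.352 in edgeR), and by -0.35 without that same library. With copies added that difference was -0.078.

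The same change of row altered other values. For mutant against control MPP3, Rps7 was at 0.60 on its own row and 0.22 with copies, Rpl12 at 0.50 and 0.27, Rps6 at 0.46 and 0.12, and Rpl31 at 0.98 and 0.71. For LT-HSC, Rpl5 was at -0.19 and 0.0996, and Rps7 at -0.21 and 0.016, so both turned sign. For ST-HSC the shift ran the other way, from 0.25 to 0.58 for Rps6 and from 0.18 to 0.48 for Rpl12. Over all members the medians with copies added were 0.38 (81 higher) for control MPP4 against LT-HSC, 0.61 for mutant against control ST-HSC and 0.23 for the average, each with 0 called in edgeR. Rps12 could be read only as such a family row. It was at 158.1, 209.3 and 391.5 CPM in control ST-HSC and 299.6, 817.3, 561.6 and 211.2 in mutant ST-HSC, 2 overlapping groups with a difference of 0.90, or 0.50 without mutant ST-HSC replicate 2, and its average mutant difference was 0.29 (adjusted p = 0.8525), or 0.19 without that library.

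**Figure D4:**
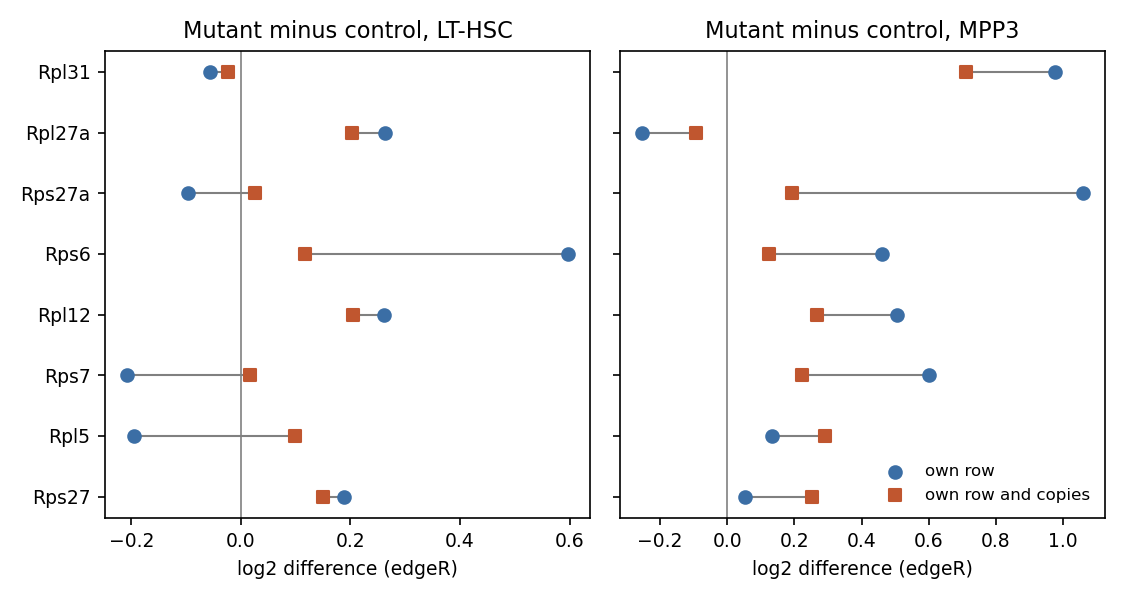
For 8 tested members with most of their counts on copies, the x axes give the edgeR log2 difference, mutant minus control, in LT-HSC (left) and MPP3 (right), as blue circles for the gene's own row and orange squares for the row summed with its copies. Rps6 in LT-HSC moves from 0.60 to 0.12 and Rps27a in MPP3 from 1.06 to 0.19.

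Rpl31, a large-subunit protein, was at 154.5, 121.7 and 226.4 CPM in control MPP3 and 246.2, 280.6, 242.3 and 553.2 in mutant MPP3. All mutant libraries lay above the controls, replicate 4 by far the most. The difference was 0.98 ± 0.332 (adjusted p = 0.9998 in edgeR) and 0.61 without that library. Rpl31 was also among the 3 members with the largest spread between replicates, with an SD of 0.698 on the log2 scale within groups, after Rps19bp1 (0.782) and before Rps21 (0.674). The smallest spreads after that of Rpl3 were those of Rpl4 (0.220) and Rpl29 (0.232).

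The paralogue pairs were expressed unequally. Per length, Rpl22, an RNA-binding large-subunit protein, was at 439.6 CPM per kilobase and its paralogue Rpl22l1 at 58.27. Rpl36a was at 512.7 and Rpl36al at 264.7, and Rpl7 at 249.6 and Rpl7l1 at 18.61. Rps27l was at 81.42, while the rows of Rps27 and Rps27rt were at 78.35 and 634.7. Reads from the coding sequence that Rps27 and Rps27rt share cannot be told apart. Mean levels not scaled for length were 208.4 CPM for Rpl22 and 32.16 for Rpl22l1, 247.7 for Rpl36a and 139.2 for Rpl36al, 290.3 for Rpl7 and 48.5 for Rpl7l1, and 340.6 for Rps19 and 7.56 for Rps19bp1. Rpl22l1 had the highest average mutant difference of the members, 0.42 ± 0.203 (adjusted p = 0.6563 in edgeR), where Rpl22 had 0.20. In MPP3 Rpl22l1 was at 25.7, 15.82 and 27.51 CPM in control and 36.89, 28.4, 35.58 and 57.98 in mutant libraries, which do not overlap, with a difference of 0.78 ± 0.346 (0.9998).

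Rps27l, a p53-responsive paralogue of Rps27, was at 32.16, 26.96, 39.18 and 16.36 CPM in control LT-HSC and 59.29, 36.46 and 62.96 in control MPP3. The groups overlapped at 1 library on each side, and the difference of 0.89 was the highest of the members in that contrast. In control MPP4 against LT-HSC the 3 stood at 0.26, 0.39 and 0.44 for Rps27, Rps27rt and Rps27l. In ST-HSC the mutant minus control values were 0.58, 0.68 and 0.64. For Rps19bp1 and Rps19 the values were -0.32 and 0.59 in control MPP4 against LT-HSC, and 0.62 and 0.66 in mutant against control ST-HSC. Whether the members of a pair differed from each other in response was not tested.

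Other genes of the translation machinery were counted in the same fits. Fau and Rack1, ribosomal protein genes outside the symbol rule, were both higher for control MPP4 against LT-HSC (median 0.29), mutant against control ST-HSC (0.58) and the average mutant effect (0.19). Of 18 elongation and related factors, a list that also holds those 2 genes, 17 were higher in control MPP4 (0.34), 13 in mutant ST-HSC (0.31) and 15 in the average (0.16), with 0 called. The 77 mitochondrial ribosomal protein genes, which encode the separate ribosome of mitochondria, had 49 higher in control MPP4 than LT-HSC (0.10) but 18 higher in control MPP4 than MPP3 (median -0.23). For mutant against control they had 51 of 77 higher in ST-HSC (0.26) and 26 of 77 in MPP3 (-0.15), and the cytosolic members had 82 and 71 of 82. Ribosome assembly genes gave 26 of 35 (0.20), 25 of 35 (0.13) and 30 of 35 (0.14) for control MPP4 against LT-HSC, mutant against control ST-HSC and the average, with 0 called. The shares of all genes called in these comparisons were 4.49%, 0% and 0.0251%.

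Some translation genes outside the members passed in edgeR. Against LT-HSC of the same genotype, the shares of all genes called were 4.49% in control MPP4 and 1.39% in control MPP3. They were 2.18% in mutant MPP4 and 2.95% in mutant MPP3. Among 37 initiation factors, 30 were higher in control MPP4 than LT-HSC (median 0.26) and 1 was called, Eif3l, a subunit of the eIF3 complex. Eif3l rose from 78.76, 70.79, 84.0 and 75.89 CPM in control LT-HSC to 109.6, 133.3, 154.0 and 123.6 in MPP4, with no overlap and a log2 difference of 0.75 ± 0.176 (adjusted p = 0.01895). It also rose in control MPP3, by 0.79 ± 0.188 (0.04321). Among regulators of ribosomal protein genes, Myc, which drives their transcription, rose in control MPP4 by 0.93 ± 0.242 (0.03408), from 185.5, 158.0, 271.5 and 217.8 CPM to 354.4, 374.6, 293.2 and 569.4. Its paralogue Mycn fell by 1.19 on the log2 scale in control MPP4 (0.04139) and by 2.65 in control MPP3 (0.001848), and by 1.98 (0.0155) and 3.03 (0.0006313) in mutant MPP4 and MPP3 against mutant LT-HSC. Cdkn1a, a p53 target that stops the cell cycle, rose from 1.403, 6.329 and 4.003 CPM in mutant LT-HSC to 16.45, 57.54, 18.89 and 28.88 in mutant MPP4, by 2.95 ± 0.603 (0.01013). The control LT-HSC libraries are shared by the control values, and the mutant LT-HSC libraries by the mutant values.

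The remaining lists had 0 called in control MPP4 against LT-HSC apart from the regulators, in which 10 of 13 were higher (median 0.19). SnoRNA host genes had 3 of 7 higher there (-0.017) and 7 of 7 in mutant ST-HSC against mutant LT-HSC (0.52). The p53 list had 3 of 5 higher (0.051), and 1 of 5 in mutant against control ST-HSC (-0.074). The mitochondrial rRNA list, with the rRNA-like Gm42418, had 1 of 3 higher (-0.11) and 3 of 3 in mutant ST-HSC (0.16). Genes outside the family whose principal transcript is under 1000 bases long had 437 of 813 higher in control MPP4 (0.032), 496 of 715 in mutant ST-HSC (0.30) and 500 of 875 in the average (0.060). In mutant against control ST-HSC short genes were thus also mostly higher in the mutant, and the part of transcript length in the members' values was not tested.

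Within groups, the members varied together. Each member's log2 level was taken as its deviation from its group mean over 29 libraries, for the 82 members with at least 10 counts in every library. The median correlation between pairs of members was 0.5628, 92.41% of pairs were above 0, and the lowest pair was at -0.5792. These correlations are across libraries that share scaling, and are given as a description. The first principal component held 54.84% of the deviation variance and gave all 82 members a weight of the same sign. Libraries with the highest scores on it were mutant ST-HSC replicate 2 (5.68), mutant MPP4 replicate 3 (3.92) and mutant LT-HSC replicate 2 (3.4), and those with the lowest were mutant LT-HSC replicate 1 (-4.83), mutant ST-HSC replicate 4 (-4.62) and control ST-HSC replicate 2 (-3.61).

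Members differed in how closely they followed the rest. The correlation with the summed level of the others was highest for Rpl37 (0.941), Rpl14 (0.920) and Rpl27 (0.919), and lowest for Rps27a (0.0817), Rpl15 (0.166) and Rps13 (0.185). All are own rows. Copies hold 66.84%, 47.97% and 9.576% of the family's counts for Rps27a, Rpl15 and Rps13. For Rpl37, Rpl14 and Rpl27 they hold 45.89%, 0.5924% and 0.01851%. The part of the copies in these correlations was not tested. The first component was made from the members' own deviations, so members rank high on it in part by construction. Of 6186 genes with at least 50 counts in every library, 19 of the 25 most like it were members. The others included Rack1 (r = 0.926) and Fau (0.882), ribosomal protein genes that the symbol rule leaves out. Over the 29 libraries the first score had r of 0.87 with the summed level of the sequence copies, 0.73 with the mitochondrial ribosomal sum, 0.7 with the elongation sum, 0.6 with Prtn3, 0.53 with the red cell sum, 0.25 with the neutrophil sum, 0.2 with the mitosis sum, 0.1 with the rRNA percent and -0.064 with the library total. The part of other cells and of depth in this common movement was not tested.

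The next component held 22.5% of the variance and split the members, 46 of 82 with a positive weight. The highest weights, all for own rows, were those of Rpl31 (0.343), Rpl10a (0.275), Rpl22l1 (0.272), Rpl11 (0.27) and Rpl15 (0.22), and the lowest those of Rps21 (-0.196), Rpl23 (-0.148), Rps28 (-0.144) and Rps2 (-0.138). Copies hold 55.46%, 10.1%, 0.3713%, 32.42% and 47.97% of the family's counts for the first 5, and at most 0.4791% for the last 4. The deviations of Rpl31 and Rpl10a had r of 0.9264, against -0.1178 for Rpl31 and Rplp0 and -0.4314 for Rpl10a and Rps21. Its score had r of -0.9 with the ratio of small-subunit to large-subunit sums over the 29 libraries, a ratio made from the same members, and 0.047 was the value for the first score. It had r of -0.51 with Prtn3, -0.43 with the sequence copies, -0.41 with the neutrophil sum, -0.4 with the mitochondrial ribosomal sum, -0.39 with the elongation sum, 0.34 with the antibody-secreting cell sum and -0.25 with the red cell sum, and their part in it was not tested. Only 6 of the 25 genes most like this component were members, and genes such as Gadl1 (0.897), Gm26510 (0.895) and Gm12124 (0.878) lay among them. Libraries high on it were control ST-HSC replicate 1 (3.16), mutant MPP4 replicate 2 (3.09), mutant LT-HSC replicate 3 (2.55) and mutant MPP3 replicate 4 (2.44). The lowest was mutant MPP4 replicate 1 (-2.79). The 3 high mutant libraries carry the same number in their descriptions, but mutant ST-HSC replicate 2, which has it too, was at -0.3. Other libraries with the number of control ST-HSC replicate 1 were at -2.22 (control LT-HSC replicate 1), 0.407 (control MPP3 replicate 1) and 0.0523 (control MPP4 replicate 1). The component after it held 4.915%.

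**Figure D5:**
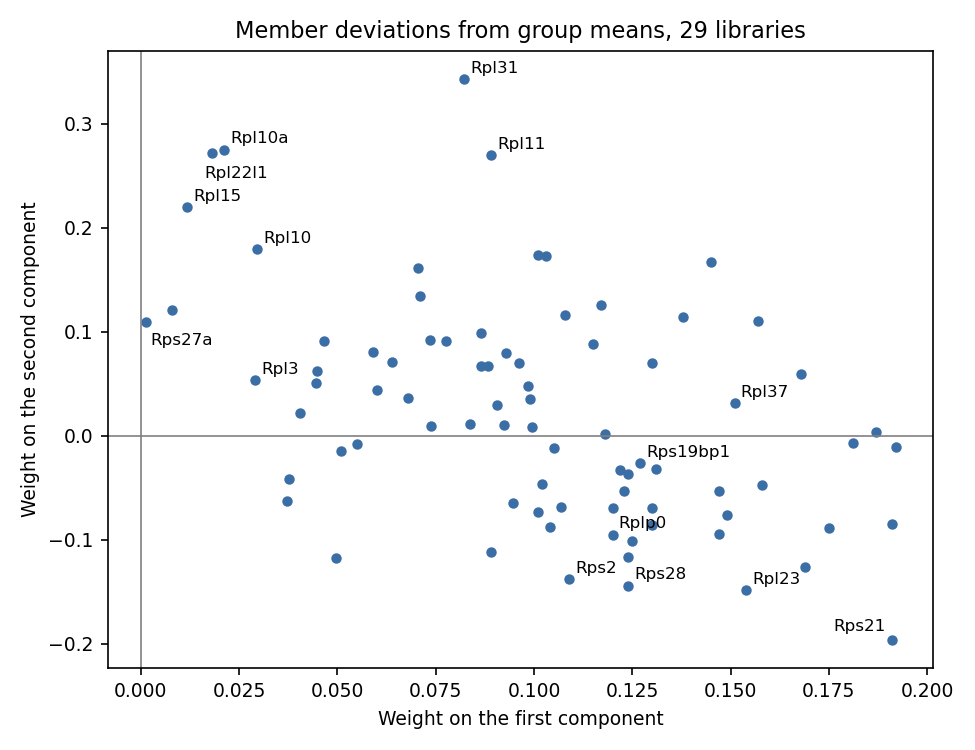
Each point is 1 of 82 members, with its weight on the first component of the deviations from group means on the x axis and its weight on the next component on the y axis. All 82 lie right of 0 on the first, while Rpl31 (0.343) and Rps21 (-0.196) mark the ends of the other.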

How the data were processed

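The values were expected counts per gene that the authors deposited as whole numbers, and the submitters' processing notes name the build GRCm38 with edgeR 3.5.3, Bowtie2 2.2.0, RSEM 1.2.12 and SAMtools 0.1.18. RSEM divides reads that match several transcripts among them, which bears on members with near-identical copies. The labels' protocols describe total RNA from the RNeasy Micro kit, made into standard Illumina libraries. Totals were 6133994 to 10374672 counts per library (median 8154515), and mitochondrial rRNA with Gm42418 held 20.81% to 36.24% of them.

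Symbols and positions came from GENCODE for GRCm38, which matched 37607 of 38924 identifiers and left 1317 unmatched. Counts were fitted with edgeR 4.0.16 (R 4.3.3) by its default quasi-likelihood test after TMM scaling, on genes kept by filterByExpr with a minimum of 10 counts and a total of 15, with Benjamini-Hochberg adjustment over all genes and a threshold of 0.05. Control populations shared 1 fit, mutant populations another, each mutant against control contrast used its own population, and the average and the interaction used all 29 libraries with 8 group means. Differences are log2 values with standard errors, and CPM uses TMM-scaled totals. Copies were rows outside the members, and the member Rps27rt, that shared at least 50% of 50-base windows with a member. DESeq2 1.42.0, limma 3.58.1 voom, other scalings, no filter, blocks, left-out libraries and, chosen after seeing the data, the robust option, the column-name prefix as a term and rows summed with copies, also without mutant ST-HSC replicate 2, were run as alternatives. The scripts were tested on simulated data. All 39 replicate pairs differed by more than sampling noise.

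The members and lists were chosen with earlier results of these data known. Members named with values were up to 5 called per direction and comparison, the 3 highest and 3 lowest per length, the 3 of largest spread, the paralogue pairs, the stalk genes, Rpsa, Rpl5, Rpl11, Rps14, Rps6 and Rps27a. Since no member was called, members of small p, the members at the ends of each range, the copies and the members of the component analysis were chosen after their values were seen, as were the rule for transcript lengths and the motifs. Of other translation genes, the 2 called with the smallest p per list were named. Some genes that enter the counts are not reported here by name.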

Additional observations from a re-analysis of the deposited data

Results flagged for a closer look

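In groups of 4 libraries, 13 measures (the summed level and named members) were examined for a single value far from the other 3, in 5 groups each. Of these 65 checks 4 passed Dixon's critical value of 0.829, and chance alone passes about 1 in 20. The summed level of the members in control LT-HSC replicate 1 was 26730 CPM, with the other 3 at 20930 to 21890, and that library also had the highest neutrophil and red cell sums. Rpl29 in control LT-HSC replicate 4 was at 226.3 CPM, below 254.3 to 255.9 in the others. In mutant MPP3 replicate 4, Rps6 was at 374.3 CPM against 192.7 to 204.3, and Rpl31 was at 553.2 against 242.3 to 280.6.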

How the results depend on the processing

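The named members of small p (Rpl3, Rpl29, Rps27l, Rpl36, Rpl36al, Rps27a, Rps6, Rpl37, Rpl31 and Rps24) kept their direction in those comparisons in every alternative run. Differences in the summed level moved by less than its replicate spread (SD 0.2871, log2) in all alternatives. That limit is wide, and a difference smaller than it could vanish or turn sign and still stay within it. Member medians did turn sign in some comparisons when 1 library was left out, as given above. The count of members called for any difference among control populations was 3 in DESeq2 and ran from 0 to 3 when 1 library was left out. For control MPP4 against LT-HSC it was 2 in DESeq2, 1 in limma voom and 1 with edgeR's robust option, and ran from 0 to 1 when 1 library was left out, with Rpl3 called without control ST-HSC replicate 1 (adjusted p = 0.04658) or replicate 3 (0.04594) and 1 other member without replicate 2. In the other 14 tests it was 0 throughout. The cause was not tested. Over all genes, calls were 1061 in DESeq2 and 458 in limma voom against 670 for control MPP4 against LT-HSC, 308 against 15 for control ST-HSC and 558 against 208 for control MPP3 in DESeq2, and 292 against 0 for mutant against control LT-HSC.

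The labels do not say what the number in the description marks, and it was not taken to pair the samples. Of 39 pairs with the same number in the description, 12 had correlated deviations over 0.1 (-0.2454 to 0.3011), and mutant LT-HSC replicate 3, MPP3 replicate 4 and MPP4 replicate 2, which share a number, were at 0.23 to 0.3011 with each other, while mutant ST-HSC replicate 2, which has it too, was at -0.06751 to -0.002785 with them. The 13 pairs by title number ran from -0.2875 to 0.1138. With the replicate block 0 members were called in any test. The description number as a block gave a median of 0.39 for control MPP4 against LT-HSC and 21 members at an unadjusted p under 0.05 for mutant ST-HSC against LT-HSC (7.9% of all genes). The title number gave medians of 0.036 (48 higher) for mutant against control LT-HSC, where 397 genes were called, and 0.73 for ST-HSC (39 at an unadjusted p under 0.05, against 3.59% of all genes). As a random block in limma voom the consensus correlation was -0.000527.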
